A study of Mus musculus with 9 samples.

Results

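Clec4e, Clec4d, Clec4n, Clec5a, Clec7a and Clec12a encode C-type lectin receptors carried mainly by neutrophils, monocytes, macrophages and dendritic cells. They were taken by name from the deposited table, which held rows for 5 of the 6 among its 25526 names. All 5 passed the filter on low values and were tested among 14540 genes. Clec7a, which encodes Dectin-1, a receptor for fungal beta-glucan, was not analysed here. The libraries came from mouse lung and formed 3 groups of 3 mice: mice given PepNzymeSOD-CAT, called nanozyme lungs here, mice with a pulmonary fibrosis model, called model lungs, and normal mice. Nanozymes are man-made materials that act like enzymes, here, going by the name, like superoxide dismutase and catalase, which clear reactive oxygen. The series asked how an inhaled nanozyme of this kind acts in pulmonary fibrosis. The inducer of fibrosis, the doses, the times, the strain and the age of the mice are not given in the sources used here, so the state of the nanozyme mice at treatment is known only from that stated aim.

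C-type lectin receptors bind sugars, lipids and other ligands of microbes and of damaged cells. Clec4e (Mincle), which binds mycobacterial glycolipid and a protein released by dead cells, Clec4d (MCL), which pairs with it, and Clec4n (Dectin-2), which binds mannans, have no signalling tail of their own and use the Fc receptor gamma chain, encoded by Fcer1g. Clec5a (MDL-1) uses DAP12, encoded by Tyrobp. Both adaptors recruit the kinase Syk, and Syk can switch on a complex of CARD9, BCL10 and MALT1 that leads to cytokine genes. Clec12a (MICL) works the other way: its tail carries an inhibitory motif that recruits the phosphatase SHP-1, encoded by Ptpn6, and it binds uric acid crystals from dead cells.

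All 5 measured receptor genes lie on chromosome 6 in the GENCODE vM21 annotation of GRCm38. Clec4n (123229843 to 123247021, plus strand), Clec4d (123262111 to 123275265, plus strand) and Clec4e (123281789 to 123289870, minus strand) stand next to each other within 60.0 kb, with 6.52 kb between Clec4d and Clec4e. Clec12a (129342691 to 129365303, plus strand) and Clec5a (40574894 to 40585821, minus strand) lie apart from that cluster. Of the 50-base stretches of their transcripts, 0% in Clec4e, Clec4d and Clec5a, 0.69% in Clec4n and 0.82% in Clec12a also occurred in transcripts of another gene, so few reads could be shared with a near copy.

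Promoter sequences from RefSeq (GRCm38.p6) matched 4 of the 5 measured genes, and Clec4n had no entry in the table. They are shown because these genes moved together across the libraries, and so that the letters before each start can be compared. Each runs 5′ to 3′ on the gene's strand over 300 bases, 250 before and 50 after the RefSeq start. The windows are chr6:123289822-123290121 (minus strand) for Clec4e, chr6:123261857-123262156 (plus strand) for Clec4d, chr6:40585756-40586055 (minus strand) for Clec5a and chr6:129349994-129350293 (plus strand) for Clec12a, whose RefSeq start lies inside the GENCODE gene. Capitals mark matches to 5 motifs searched on both strands.
Clec4e: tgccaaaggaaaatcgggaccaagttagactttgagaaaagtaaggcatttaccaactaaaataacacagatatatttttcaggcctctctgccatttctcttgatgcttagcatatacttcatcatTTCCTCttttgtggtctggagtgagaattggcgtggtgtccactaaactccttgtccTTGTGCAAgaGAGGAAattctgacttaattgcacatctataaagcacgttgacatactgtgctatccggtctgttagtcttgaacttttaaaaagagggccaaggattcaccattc
Clec4d: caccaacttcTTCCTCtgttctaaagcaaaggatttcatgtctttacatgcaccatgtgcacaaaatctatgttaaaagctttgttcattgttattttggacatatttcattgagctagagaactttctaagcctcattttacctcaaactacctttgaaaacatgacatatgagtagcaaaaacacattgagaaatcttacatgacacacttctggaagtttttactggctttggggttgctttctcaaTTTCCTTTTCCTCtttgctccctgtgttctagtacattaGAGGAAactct
Clec5a: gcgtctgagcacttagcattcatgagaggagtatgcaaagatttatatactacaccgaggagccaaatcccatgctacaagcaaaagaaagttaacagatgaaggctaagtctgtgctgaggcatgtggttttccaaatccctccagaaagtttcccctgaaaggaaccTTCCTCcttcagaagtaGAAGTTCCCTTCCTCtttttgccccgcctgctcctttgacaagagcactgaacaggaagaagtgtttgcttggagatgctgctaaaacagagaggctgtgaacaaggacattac
Clec12a: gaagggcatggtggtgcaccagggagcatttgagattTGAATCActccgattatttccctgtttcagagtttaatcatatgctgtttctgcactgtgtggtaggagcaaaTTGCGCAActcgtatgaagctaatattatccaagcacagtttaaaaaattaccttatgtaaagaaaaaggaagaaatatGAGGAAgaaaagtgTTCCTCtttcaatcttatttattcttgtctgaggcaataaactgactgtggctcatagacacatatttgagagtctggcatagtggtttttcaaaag
The PU.1/ETS core GAGGAA, or its complement, occurred in 4 of these 4 promoters and in 28.3% of 27025 promoters of the same length. The C/EBP pattern TTGCNNAA occurred in Clec4e and Clec12a and in 10.8% of all promoters. The AP-1 pattern TGANTCA occurred in Clec12a and in 7.9%, and the interferon response pattern AAANNGAAA in Clec4d, where it overlaps a GAGGAA match, and in 10.7%. The NF-kB pattern GGGANNTTC occurred in Clec5a, beside a GAGGAA match, and in 3.9% of all promoters. That match depends on the spelling: a longer NF-kB pattern used in a first scan occurred in 0 of the 4 promoters and in 20.5% of all. A longer interferon response pattern of the same scan occurred in Clec4d and in 3.5% of all promoters. The 5 motifs were chosen after these promoters had been seen, and a match is a stretch of letters, and no binding was measured.

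The deposited values are FPKM, reads scaled to transcript length and library size, so levels of different genes can be set side by side. Summed FPKM was 443746 to 519772 per library, and the depth in reads is unknown. On the first principal component, with 62.8% of the variance, nanozyme replicates 1 and 3 lay at -14.4 and -9.68 and nanozyme replicate 2 at 43.3, while model libraries ranged over 39.5 to 61.2 and normal libraries over -63.5 to -54.8. Nanozyme replicate 2 thus stood apart from its group and beside the model libraries, while no model library lay near the other nanozyme libraries. An exchanged label and a mouse that differed from the others cannot be told apart here, and every nanozyme mean and test that includes this library depends on its label. The receptor changes and the counts of called list genes that involve nanozyme lungs are therefore given also without it. The lung genes Sftpc, Scgb1a1, Ager, Pecam1, Foxj1 and Pdgfra summed to 31643 to 52589 FPKM in nanozyme lungs, 14610 to 24109 FPKM in model lungs and 77513 to 97727 FPKM in normal lungs, so the labelled tissue was present in every library.

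Clec4e had the widest range of the 5 receptors. Its level was 6.31, 155 and 13.2 FPKM in nanozyme replicates 1 to 3, 117, 264 and 177 FPKM in model replicates 1 to 3, and 0.666, 0.607 and 0.533 FPKM in normal replicates 1 to 3. Every model lung was above every normal lung, and nanozyme replicate 2 lay inside the model range while the other nanozyme lungs lay between the model and normal ranges.

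Clec4d reached levels of a similar height in model lungs. It was at 15.8, 122 and 16.4 FPKM in nanozyme lungs, 123, 222 and 134 FPKM in model lungs and 1.17, 1.62 and 0.940 FPKM in normal lungs. Nanozyme replicate 2 was just under the lowest model lung, and replicates 1 and 3 were close to each other.

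Clec4n was the most abundant of the 3 clustered genes in normal lung. It was at 19.0, 75.6 and 23.4 FPKM in nanozyme lungs, 70.8, 107 and 75.8 FPKM in model lungs and 4.20, 4.47 and 5.35 FPKM in normal lungs. Nanozyme replicate 2 again fell inside the model range.

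Clec5a had the lowest level of the 5 in every nanozyme and model library. It was at 3.14, 23.6 and 3.70 FPKM in nanozyme lungs, 20.2, 35.4 and 31.3 FPKM in model lungs and 0.390, 0.517 and 0.649 FPKM in normal lungs. Only nanozyme replicate 2 overlapped the model lungs.

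Clec12a, the inhibitory receptor, had the narrowest range. It was at 17.6, 36.1 and 18.02 FPKM in nanozyme lungs, 37.7, 60.6 and 39.1 FPKM in model lungs and 4.85, 5.53 and 5.28 FPKM in normal lungs. Here all 3 nanozyme lungs lay below all 3 model lungs and above all 3 normal lungs.

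**Figure D1:**
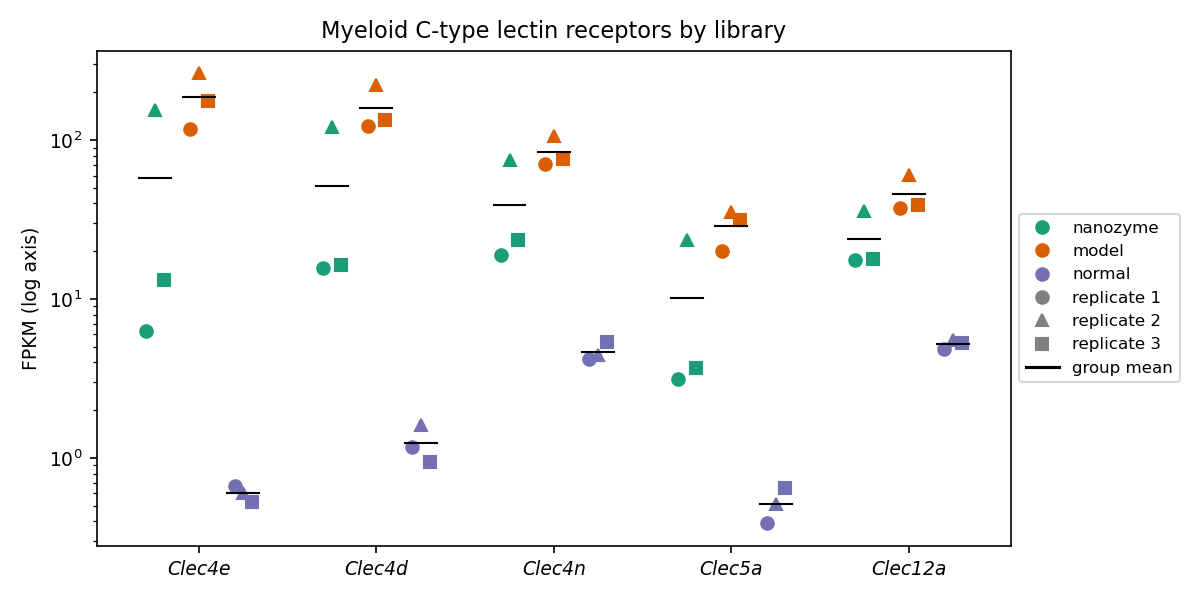
FPKM of the 5 measured receptor genes on a log axis, 1 point per mouse lung, with nanozyme, model and normal lungs in that order and bars at group means. Nanozyme replicate 2 (triangle) sits inside the model range or just under it for each gene, and the normal lungs sit lowest.

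The model and normal lungs were compared first, a contrast that shows what the fibrosis model changed. All 5 measured receptor genes were higher in model lungs by limma on log2(FPKM + 1) with Benjamini-Hochberg adjustment at 0.05, where 17.4% of all tested genes were higher and 22.7% lower, and at all 5 the model and normal ranges did not overlap, against 23.5% of tested genes with no overlap and a higher model. Changes on this scale understate those of low genes. In bulk tissue, more cells that carry a receptor and more of its RNA per cell cannot be told apart.

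Clec4e averaged 186 ± 73.6 FPKM in model lungs and 0.602 ± 0.0667 FPKM in normal lungs (SD, n = 3 each), a log2 change of 6.79 ± 0.95 (SE, adjusted p = 0.00159). Clec4d averaged 159 ± 54.3 FPKM in model lungs and 1.24 ± 0.348 FPKM in normal lungs, a change of 6.12 ± 0.69 (adjusted p = 0.000664). Clec4e and Clec4d, whose receptors pair with each other, had the largest changes of the 5. Clec5a averaged 29.0 ± 7.88 FPKM in model lungs and 0.519 ± 0.129 FPKM in normal lungs (4.27 ± 0.60, adjusted p = 0.00161). Clec4n averaged 84.5 ± 19.5 FPKM in model lungs and 4.67 ± 0.601 FPKM in normal lungs (3.90 ± 0.45, adjusted p = 0.000694). Clec12a averaged 45.8 ± 12.8 FPKM in model lungs and 5.22 ± 0.345 FPKM in normal lungs (2.88 ± 0.28, adjusted p = 0.000389). Every call held in all 19 alternative fits, with adjusted p-values of at most 0.00909 for any of the 5 genes.

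The nanozyme and model lungs were compared next, the contrast closest to the stated aim of the series. The mean of each receptor was lower in nanozyme lungs, and by limma with Benjamini-Hochberg adjustment 0 of the 5 passed. The same test passed 0 of all 14540 genes, and at an unadjusted p under 0.05 it had 1262 lower genes (8.68%) and 1949 higher genes (13.4%), with the 5 receptors among the lower ones. Clec4d and Clec12a did not overlap between nanozyme and model lungs, where 5.83% of tested genes had no overlap and a lower nanozyme group, and Clec4e, Clec4n and Clec5a overlapped through nanozyme replicate 2.

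Clec4e averaged 58.1 ± 83.9 FPKM in nanozyme lungs and 186 ± 73.6 FPKM in model lungs (SD, n = 3 each), a log2 change of -2.81 ± 0.95 (SE, unadjusted p = 0.0176, adjusted p = 0.182 by limma). Its SD in nanozyme lungs exceeded its mean, because the highest nanozyme library was 24.5-fold above the lowest. Clec4d averaged 51.4 ± 61.0 FPKM in nanozyme lungs and 159 ± 54.3 FPKM in model lungs (-2.23 ± 0.69, adjusted p = 0.182). Clec5a averaged 10.2 ± 11.7 FPKM in nanozyme lungs and 29.0 ± 7.88 FPKM in model lungs (-1.90 ± 0.60, adjusted p = 0.182). Clec4n averaged 39.3 ± 31.5 FPKM in nanozyme lungs and 84.5 ± 19.5 FPKM in model lungs (-1.33 ± 0.45, adjusted p = 0.182). Clec12a averaged 23.9 ± 10.6 FPKM in nanozyme lungs and 45.8 ± 12.8 FPKM in model lungs (-0.96 ± 0.28, adjusted p = 0.181).

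Without nanozyme replicate 2 all 5 receptor genes were called lower in nanozyme lungs by limma, in a fit that called 9.64% of tested genes lower and 12.5% higher. There Clec4e changed by -4.12 ± 0.36 (adjusted p = 0.000482), Clec4d by -3.18 ± 0.25 (adjusted p = 0.000375) and Clec5a by -2.73 ± 0.23 (adjusted p = 0.000394). Clec4n changed by -1.93 ± 0.19 (adjusted p = 0.000714) and Clec12a by -1.28 ± 0.20 (adjusted p = 0.00424). The choice of this library as the one to set aside was made with its values known, so these calls describe the other 2 nanozyme mice and are no independent evidence of an effect of the nanozyme. No label gives a ground for leaving it out.

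**Figure D2:**
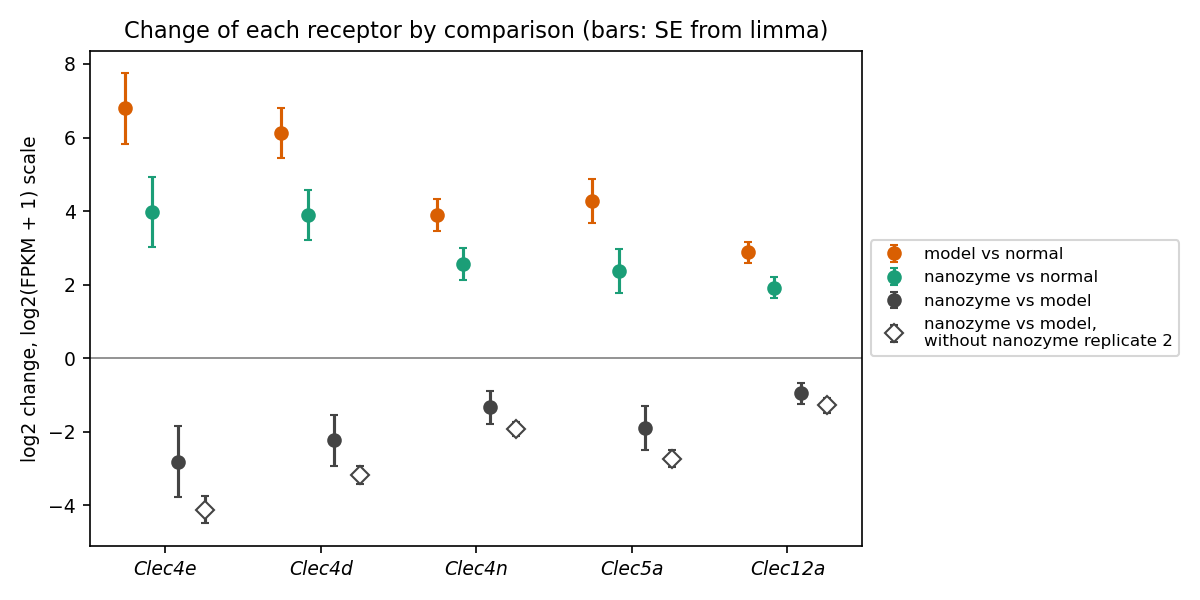
log2 change of FPKM + 1 with its SE for each receptor gene in the 3 comparisons, from limma on all 9 libraries, and for nanozyme against model lungs also without nanozyme replicate 2 (open diamonds). Changes between nanozyme and model lungs are larger below 0 without that library, at -4.12 against -2.81 for Clec4e.

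The nanozyme and normal lungs were compared last, to see how far the receptors stayed from the normal level. All 5 were higher in nanozyme lungs by limma with all 9 libraries, where 8.39% of tested genes were higher and 5.5% lower, and no receptor overlapped between these groups, against 22.1% of tested genes with no overlap and a higher nanozyme group. This comparison shares libraries with both others, so its values are given beside theirs, with no correlation or overlap between the comparisons. Clec4e averaged 58.1 ± 83.9 FPKM in nanozyme lungs and 0.602 ± 0.0667 FPKM in normal lungs (SD, n = 3 each), a log2 change of 3.98 ± 0.95 (SE, adjusted p = 0.0290 by limma). Clec4d changed by 3.89 ± 0.69 (adjusted p = 0.00943), Clec4n by 2.57 ± 0.45 (adjusted p = 0.00855), Clec5a by 2.37 ± 0.60 (adjusted p = 0.0350) and Clec12a by 1.92 ± 0.28 (adjusted p = 0.00417).

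The calls of Clec4d, Clec4n and Clec12a against normal lungs held in all 19 alternative fits, and those of Clec4e and Clec5a did not. By limma without normal replicate 1, 2 or 3, the adjusted p of Clec4e was 0.0933, 0.0671 and 0.0944, and that of Clec5a was 0.116, 0.0790 and 0.101. With only the 2 groups compared, they were 0.0634 for Clec4e and 0.0716 for Clec5a. Clec5a also missed the threshold with no filter (adjusted p = 0.0564), without model replicate 1 (0.05001) and without model replicate 3 (0.0523). Without nanozyme replicate 2 all 5 were called higher, where 9.31% of tested genes were higher and 4.26% lower, with changes of 2.67 for Clec4e, 2.94 for Clec4d, 1.97 for Clec4n, 1.54 for Clec5a and 1.60 for Clec12a.

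The place of each nanozyme lung on the distance between the normal and model means of log2(FPKM + 1) was read for each receptor. It uses the same libraries as the comparisons above and adds no independent evidence to them. Nanozyme replicate 2 was at 97.2% of that distance for Clec4e, 94.5% for Clec4d, 96.6% for Clec4n, 94.2% for Clec5a and 89.5% for Clec12a. Nanozyme replicates 1 and 3 were at 32.3% and 46.4% for Clec4e and at 33.9% and 38.2% for Clec5a. They were at 47.6% and 48.5% for Clec4d, 46.8% and 54.2% for Clec4n, and 54.8% and 56.0% for Clec12a. On this scale Clec12a was nearest to the model level in both of these mice, and Clec4e in replicate 1 and Clec5a in replicate 3 were farthest from it. Clec4e and Clec5a averaged below 1 FPKM in normal lungs, and the added 1 lowers their percentages. The size of the differences between receptors therefore rests partly on it.

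The order of the receptors within a library also differed between groups. In model replicates 2 and 3 and in nanozyme replicate 2 it ran, from high to low, Clec4e, Clec4d, Clec4n, Clec12a and Clec5a, and in model replicate 1 Clec4d came before Clec4e. In nanozyme replicates 1 and 3 it ran Clec4n, Clec12a, Clec4d, Clec4e and Clec5a. In normal replicates 1 and 2 it ran Clec12a, Clec4n, Clec4d, Clec4e and Clec5a. In normal replicate 3 Clec4n came before Clec12a and Clec5a before Clec4e. Neighbours in these orders were not tested, and some pairs changed places between libraries of 1 group. In nanozyme lungs Clec4e and Clec4d changed places with each other, and each of them with Clec4n and with Clec12a. In model lungs Clec4e and Clec4d changed places, and in normal lungs Clec4n and Clec12a, and Clec4e and Clec5a, did so.

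Summed over the 5 genes, FPKM was 61.8, 412 and 74.8 in nanozyme replicates 1 to 3, 369 to 688 in model lungs and 11.3 to 12.8 in normal lungs. Clec4e made up 10.2%, 37.6% and 17.7% of that sum in the nanozyme lungs, 31.8%, 38.3% and 38.8% in the model lungs, and 5.91%, 4.76% and 4.18% in the normal lungs. Clec12a made up 28.4%, 8.76% and 24.1% in the nanozyme lungs, 10.2%, 8.81% and 8.56% in the model lungs, and 43.0%, 43.4% and 41.4% in the normal lungs. The sum in normal lung was thus largely the inhibitory receptor and Clec4n, and in model lung largely Clec4e and Clec4d. The level of Clec4e over that of Clec12a was 0.359, 4.29 and 0.734 in nanozyme lungs, 3.12 to 4.53 in model lungs and 0.101 to 0.137 in normal lungs. On this ratio too, nanozyme replicate 2 lay inside the model range and the other nanozyme lungs between the ranges.

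**Figure D3:**
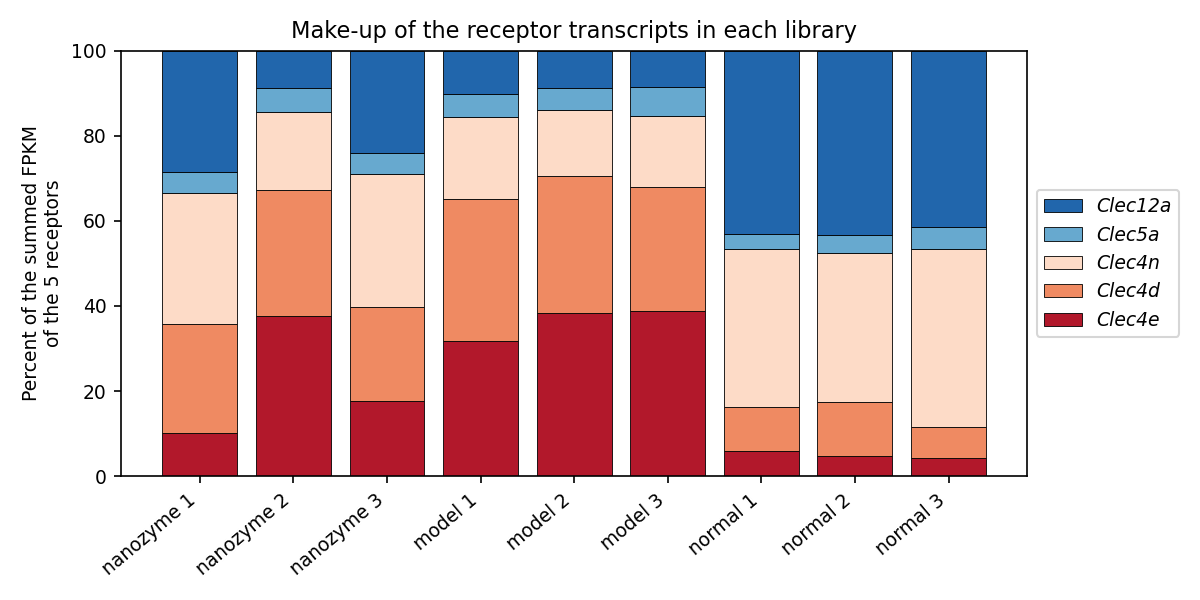
Share of each receptor gene in the summed FPKM of the 5, in percent, as a stacked bar from 0 to 100 for each of the 9 lungs. Clec4e takes 31.8% to 38.8% of the bar in model lungs and 4.18% to 5.91% in normal lungs, and Clec12a takes the largest share in normal replicates 1 and 2.

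Leukocyte genes were higher in model than in normal lungs, as the receptors were. Without nanozyme replicate 2, 4 of 6 general leukocyte markers were called lower in nanozyme than in model lungs, against 5 of 5 receptors and 9.64% of all tested genes. Ptprc, which encodes the pan-leukocyte protein CD45, was at 63.5, 86.8 and 67.6 FPKM in nanozyme lungs, 80.3, 94.0 and 106 FPKM in model lungs and 18.1, 22.7 and 22.0 FPKM in normal lungs. Clec12a over Ptprc was 0.277, 0.416 and 0.267 in nanozyme lungs, 0.371 to 0.645 in model lungs and 0.240 to 0.269 in normal lungs, so nanozyme replicates 1 and 3 were at or near the normal range. Clec4e over Ptprc was 0.0995, 1.79 and 0.196 in nanozyme lungs, 1.46 to 2.81 in model lungs and 0.0242 to 0.0368 in normal lungs, so each nanozyme lung was above the normal range.

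Taken relative to Ptprc within each library, an alternative added after the data were seen and given with no test, the log2 changes between model and normal lungs were 4.69 for Clec4e, 4.02 for Clec4d, 1.79 for Clec4n, 2.17 for Clec5a and 0.78 for Clec12a. Between nanozyme and model lungs they were -2.45, -1.87, -0.97, -1.54 and -0.59 in the same order of genes. Between nanozyme and normal lungs they were 2.24, 2.15, 0.83, 0.63 and 0.18. All kept the sign of the change without this scaling, and that of Clec12a against normal lungs was the smallest. This did not hold for Clec5a and Clec12a against normal lungs without nanozyme replicate 2. There the changes relative to Ptprc were -3.63 for Clec4e, -2.68 for Clec4d, -1.43 for Clec4n, -2.23 for Clec5a and -0.79 for Clec12a against model lungs. Against normal lungs they were 1.07 for Clec4e, 1.33 for Clec4d and 0.36 for Clec4n, with -0.07 for Clec5a and -0.01 for Clec12a. These changes add 1 to each FPKM before the ratio, which weighs on a gene as low as Clec5a in normal lungs. With no 1 added, Clec5a over Ptprc was 0.0494 and 0.0547 in nanozyme replicates 1 and 3, above the 0.0216 to 0.0295 of normal lungs. The values slightly below 0 therefore do not show a ratio below that of normal lungs.

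Against Csf3r, the receptor for granulocyte colony-stimulating factor on neutrophils, the receptors differed from each other. Clec12a over Csf3r was 0.737, 0.481 and 0.787 in nanozyme lungs, 0.426 to 0.753 in model lungs and 2.32 to 3.02 in normal lungs. Clec4n over Csf3r was 0.796, 1.01 and 1.02 in nanozyme lungs, 0.824 to 1.33 in model lungs and 1.87 to 3.05 in normal lungs. For both, the ratio was lower in every model lung than in every normal lung. Clec4e over Csf3r was 0.265, 2.06 and 0.578 in nanozyme lungs, 1.60 to 3.28 in model lungs and 0.254 to 0.404 in normal lungs, higher in every model lung than in every normal lung. Clec5a over Csf3r overlapped, at 0.275 to 0.440 in model lungs and 0.216 to 0.371 in normal lungs. Csf3r itself was low in normal lungs, at 1.65, 2.39 and 1.75 FPKM. Clec4n over Csf1r, the receptor for macrophage colony-stimulating factor, was 0.307, 1.02 and 0.456 in nanozyme lungs, 0.790 to 0.974 in model lungs and 0.165 to 0.211 in normal lungs. Clec12a over Csf1r was 0.284, 0.487 and 0.351 in nanozyme lungs, 0.408 to 0.553 in model lungs and 0.204 to 0.223 in normal lungs. Both were higher in every model lung than in every normal lung, the reverse of their ratios to Csf3r.

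Of 11 neutrophil markers, 10 were higher and 0 lower in model lungs against normal lungs, and their summed level was 1162 to 3360 FPKM in nanozyme lungs, 2582 to 3499 FPKM in model lungs and 56.2 to 339.7 FPKM in normal lungs. Ltf, the marker that did not pass, was at 299.6, 8.01 and 143 FPKM in normal replicates 1 to 3, and without it the sums were 1128 to 3327 FPKM in nanozyme lungs, 2501 to 3234 FPKM in model lungs and 40.1 to 48.6 FPKM in normal lungs. Ly6g, a defining neutrophil marker, was at 4.67, 17.9 and 6.15 FPKM in nanozyme lungs, 16.5, 12.2 and 13.97 FPKM in model lungs, and was listed at 0 in all 3 normal lungs. Of 12 monocyte and recruited macrophage markers, 11 were higher and 0 lower in model lungs against normal lungs, with sums of 6495 to 10968 FPKM in nanozyme lungs, 8149 to 11375 FPKM in model lungs and 3894 to 4756 FPKM in normal lungs. Lyz2, the lysozyme gene, made up most of each sum and changed by 0.92 ± 0.26 between model and normal lungs, against a list median of 2.67. Without it the sums were 624 to 1242 FPKM in nanozyme lungs, 1310.1 to 1828 FPKM in model lungs and 199 to 201 FPKM in normal lungs. All 6 general leukocyte markers were higher in model than in normal lungs, with sums of 498.7 to 760.5 FPKM in nanozyme lungs, 749 to 900.1 FPKM in model lungs and 147 to 181 FPKM in normal lungs. Between nanozyme and model lungs 0 markers of these lists passed with all 9 libraries, and without nanozyme replicate 2, 8 neutrophil, 8 monocyte and macrophage and 4 leukocyte markers were lower and 0 higher. In that fit 9.64% of all tested genes were lower and 12.5% higher. For model against normal lungs the shares over all tested genes were 17.4% higher and 22.7% lower. The part that the number of these cells has in the receptor values was not tested.

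Fewer markers of alveolar macrophages, dendritic cells and lymphocytes passed. The counts below stand beside 17.4% higher and 22.7% lower over all tested genes in model lungs against normal lungs. Of 10 alveolar macrophage markers 3 were higher and 0 lower in model lungs against normal lungs, with sums of 739.5 to 855 FPKM in nanozyme lungs, 672 to 779.5 FPKM in model lungs and 311 to 349 FPKM in normal lungs. Without nanozyme replicate 2, 4 of these were higher and 1 lower in nanozyme than in model lungs, against 12.5% and 9.64% of all tested genes. Of 7 tested dendritic cell markers, 0 were higher and 1 lower in model lungs against normal lungs, with sums over 8 listed genes of 27.0 to 31.0 FPKM in nanozyme lungs, 21.3 to 29.7 FPKM in model lungs and 31.1 to 37.7 FPKM in normal lungs. Of 8 lymphocyte markers, 4 were higher and 0 lower in model lungs against normal lungs, with sums of 73.9 to 127 FPKM in nanozyme lungs, 70.4 to 92.5 FPKM in model lungs and 33.4 to 45.3 FPKM in normal lungs. Of the 6 lung structural markers, 0 were higher and 2 lower in model lungs against normal lungs, and 4 were lower without nanozyme replicate 2. The dendritic cell count was 1 higher and 1 lower without nanozyme replicate 1 and also without nanozyme replicate 2. Over the 19 alternative fits, the dendritic cell calls ran from 0 to 3 and differed from the main fit in 9. The lung structural calls ran from 0 to 4. The part that these cells have in the receptor values was not tested.

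The signalling partners of the receptors moved in the same direction. Of 10 adaptors and proximal kinases, 10 were higher in model than in normal lungs, where 17.4% of all tested genes were higher. Their median log2 change was 2.67, against -0.12 over all tested genes and 4.27 over the 5 receptors. In nanozyme against normal lungs 10 were higher as well, also 10 without nanozyme replicate 2, and 6 without normal replicate 3. Of all tested genes, 8.39% were higher there, and 9.31% without nanozyme replicate 2. Fcer1g, the gamma chain of Clec4e, Clec4d and Clec4n, was at 119, 428 and 137 FPKM in nanozyme lungs, 375.5, 767 and 421 FPKM in model lungs and 29.8, 38.3 and 34.2 FPKM in normal lungs (3.83 ± 0.47 for model against normal, adjusted p = 0.000913 by limma). Tyrobp, the adaptor of Clec5a, was at 206, 391 and 209 FPKM in nanozyme lungs, 308, 634 and 344 FPKM in model lungs and 50.4, 54.0 and 50.2 FPKM in normal lungs (2.96 ± 0.32, adjusted p = 0.000545). Both adaptors exceeded the level of each receptor in every normal library.

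Between nanozyme and model lungs Fcer1g changed by -1.37 ± 0.47 and Tyrobp by -0.66 ± 0.32 (adjusted p = 0.182 and 0.253 by limma), beside -1.33 ± 0.45 for Clec4n and -1.90 ± 0.60 for Clec5a. Fcer1g changed by -1.95 ± 0.29 and Tyrobp by -0.97 ± 0.28 without nanozyme replicate 2 (adjusted p = 0.00355 and 0.0423). Among the kinases and their substrates, Syk (2.77 ± 0.22), the phospholipase Plcg2 (1.87 ± 0.15) and the Src-family kinase Fgr (3.43 ± 0.30) had the smallest adjusted p-values for model against normal, from 0.000180 to 0.000248. Syk averaged 36.4 ± 12.0 FPKM in nanozyme lungs, 58.9 ± 10.2 FPKM in model lungs and 7.69 ± 0.517 FPKM in normal lungs (SD, n = 3 each). Without nanozyme replicate 2, 8 of the 10 were lower and 0 higher in nanozyme than in model lungs, against 9.64% and 12.5% of all tested genes.

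Some genes of the complex downstream of Syk and of its regulators passed. Of 8 genes of the CARD9 complex and its regulators, 3 were higher and 1 lower in model lungs against normal lungs. Over all tested genes 17.4% were higher and 22.7% lower there. Card9 rose by 1.44 ± 0.13 (adjusted p = 0.000275), Malt1, a protease of the complex, by 2.76 ± 0.40 (adjusted p = 0.00184) and Bcl10, which joins them, by 0.67 ± 0.16 (adjusted p = 0.0109). Trim62, a ubiquitin ligase that acts on CARD9, fell by 0.68 ± 0.16 (adjusted p = 0.0107). Card9 averaged 11.5 ± 2.11 FPKM in nanozyme lungs, 15.004 ± 0.822 FPKM in model lungs and 4.90 ± 0.344 FPKM in normal lungs (SD, n = 3 each), a smaller range than that of any receptor. In nanozyme against normal lungs 2 of the 8 were higher, also 2 without nanozyme replicate 2, and 1 without model replicate 1 or without normal replicate 1, 2 or 3. With all 9 libraries 8.39% of all tested genes were higher there. Without nanozyme replicate 2, 2 were higher and 3 lower in nanozyme than in model lungs, where 12.5% of all tested genes were higher and 9.64% lower.

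Of 5 phosphatases and brakes on such signals, 3 were higher and 0 lower in model lungs against normal lungs. The shares over all tested genes were 17.4% higher and 22.7% lower. Ptpn6, which encodes the phosphatase that Clec12a recruits, was at 63.2, 98.5 and 55.0 FPKM in nanozyme lungs, 98.6, 136 and 115 FPKM in model lungs and 17.8, 20.6 and 20.6 FPKM in normal lungs (2.50 ± 0.21 for model against normal, adjusted p = 0.000242 by limma), beside 2.88 ± 0.28 for Clec12a. The lipid phosphatase gene Inpp5d rose by 1.45 ± 0.10 and the docking protein gene Dok3 by 1.98 ± 0.18. All 3 were also higher in nanozyme than in normal lungs, where 8.39% of all tested genes were higher. Without nanozyme replicate 2, 3 of the 5 were so, against 9.31% of all tested genes. In that fit 2 of the 5 were lower and 0 higher in nanozyme than in model lungs, against 9.64% and 12.5% of all tested genes.

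Of 13 cytokine and enzyme genes that CARD9 signals can induce, 12 were higher and 0 lower in model lungs against normal lungs, with a median change of 3.83. The shares over all tested genes were 17.4% and 22.7%. Il1b, a pyrogenic cytokine, was at 35.2, 397 and 48.4 FPKM in nanozyme lungs, 345, 606 and 617 FPKM in model lungs and 9.83, 9.55 and 8.55 FPKM in normal lungs (5.62 ± 0.78, adjusted p = 0.00148). Csf2, a growth factor for myeloid cells, was at 2.96, 8.02 and 4.29 FPKM in nanozyme lungs, 10.2, 12.8 and 14.3 FPKM in model lungs and 2.77, 3.56 and 2.29 FPKM in normal lungs (1.79 ± 0.29, adjusted p = 0.00254). Csf3, the neutrophil growth factor, was at 0.0631, 7.58 and 0.703 FPKM in nanozyme lungs and 13.5, 12.4 and 14.5 FPKM in model lungs, and in normal lungs it was listed at 0 in replicates 1 and 2 and at 0.0381 FPKM in replicate 3. Il10, an inhibitory cytokine, was at 0.863, 1.10 and 0.505 FPKM in nanozyme lungs and 1.80, 2.15 and 1.69 FPKM in model lungs, and in normal lungs at 0.169 FPKM in replicate 1 and listed at 0 in replicates 2 and 3. These genes also lie downstream of other receptors. In nanozyme against normal lungs 2 of the 13 were higher, beside 8.39% of all tested genes. That count was 4 without nanozyme replicate 1, 4 without nanozyme replicate 2, 1 without normal replicate 1 and 0 without normal replicate 2 or 3. Without nanozyme replicate 2, 13 of 13 were lower in nanozyme than in model lungs, where 9.64% of all tested genes were lower.

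**Figure D4:**
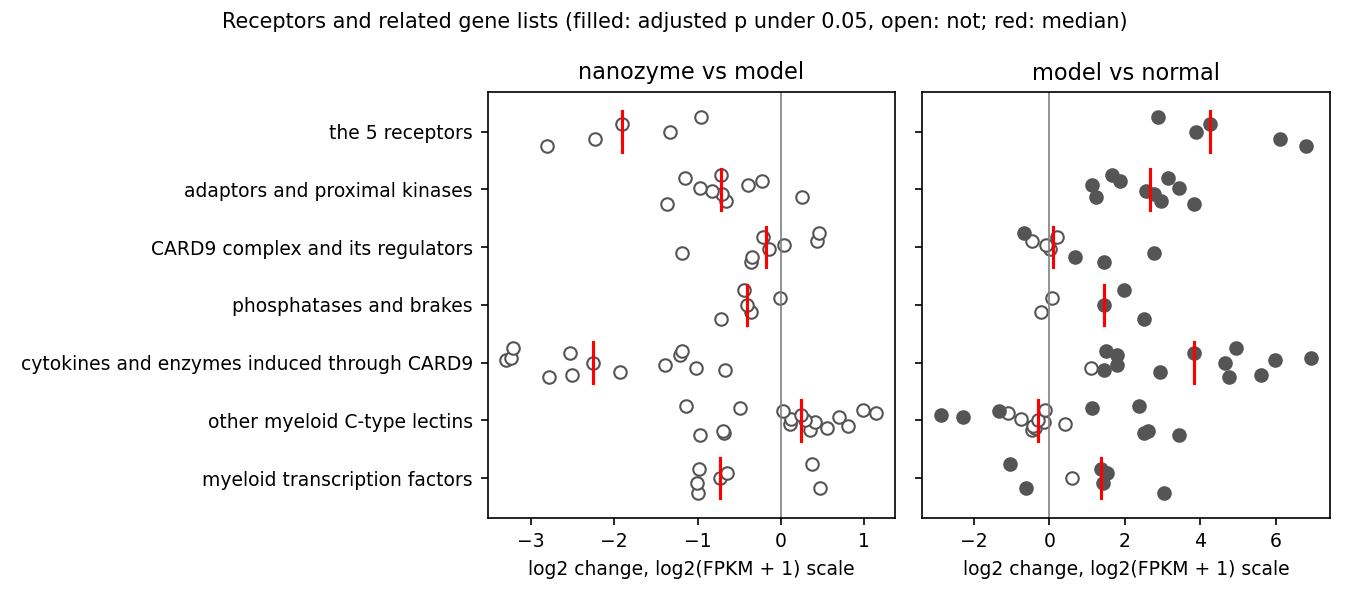
log2 change of FPKM + 1 for the receptors and 6 related gene lists, nanozyme against model lungs on the left and model against normal lungs on the right, 1 point per tested gene (filled where the adjusted p is under 0.05) with list medians in red. The receptors have a median of 4.27 in model against normal lungs, above the median of 2.67 for their adaptors and kinases.

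The other listed C-type lectins, not all of them confined to myeloid cells, did not share a direction. Of 17 tested genes of 21 listed, 5 were higher and 3 lower in model lungs against normal lungs, with a median change of -0.29 against 4.27 for the 5 receptors. Over all tested genes 17.4% were higher and 22.7% lower, with a median of -0.12. Cd209a, a dendritic cell lectin, was at 0.417, 0.493 and 0.718 FPKM in nanozyme lungs, 0.395, 0.162 and 0.349 FPKM in model lungs and 8.88, 9.10 and 7.72 FPKM in normal lungs (-2.88 ± 0.14, adjusted p = 4.28e-05). Clec4a1 (3.43 ± 0.22), Clec4a3 (2.62 ± 0.23) and Clec4a2 (2.52 ± 0.27), relatives in the same cluster, were higher in model lungs, with adjusted p-values of at most 0.000536. Between nanozyme and model lungs 0 of the 17 passed, and without nanozyme replicate 2, 3 were higher and 4 lower. In that fit 12.5% of all tested genes were higher and 9.64% lower.

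The neighbours of the receptor genes were read within 500 kb on either side, a window chosen after the data were seen. Around the Clec4 cluster 5 of 8 tested neighbours were higher in model than in normal lungs: Clec4a1, Clec4a3, Clec4a2, the complement receptor gene C3ar1 (3.24 ± 0.21) and the glucose transporter gene Slc2a3 (1.33 ± 0.24). Foxj2, Necap1 and Clec4b1 did not pass, at -0.29 ± 0.17, -0.07 ± 0.09 and -0.47 ± 0.21. Around Clec12a 8 of 18 tested neighbours were higher, namely Cd69, Olr1, Klre1, Klrd1, Klrk1, Klrc1, Klri2 and Klra17, and 0 were lower. Clec12b, a lectin gene in that window, did not pass (-0.75 ± 0.27, adjusted p = 0.0551 by limma). Around Clec5a 2 neighbours were tested, of which 0 were higher and 1 was lower. The shares over all tested genes in this comparison were 17.4% higher and 22.7% lower.

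Of 7 tested myeloid transcription factor genes of 8 listed, 4 were higher and 2 lower in model lungs against normal lungs. Among all tested genes the shares were 17.4% and 22.7%. The count of calls was 3, all higher, without model replicate 3 and also without normal replicate 3. Spi1, which encodes PU.1, was at 36.2, 73.8 and 33.7 FPKM in nanozyme lungs, 83.9, 105 and 83.0 FPKM in model lungs and 8.80, 11.0 and 10.4 FPKM in normal lungs (3.05 ± 0.27, adjusted p = 0.000273). Cebpb, which encodes a C/EBP factor, was at 154, 403 and 160 FPKM in nanozyme lungs, 449, 501 and 361 FPKM in model lungs and 157, 167 and 158 FPKM in normal lungs (1.43 ± 0.34, adjusted p = 0.0114). For Cebpb nanozyme replicates 1 and 3 were thus at or near the normal range, where Clec4e in the same lungs was above it. Irf5 rose by 1.53 ± 0.16 (adjusted p = 0.000456) and Klf4 fell by 1.04 ± 0.28 (adjusted p = 0.0186). Binding of these factors at the receptor promoters was not measured.

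Across the 9 libraries the receptors were set against all tested genes by the root mean square difference of centred log2(FPKM + 1), where 0 means the same profile. Clec4e was nearest to Cxcl10, an interferon-induced chemokine gene (0.336), and Slfn4 (0.371). Clec4d was nearest to the complement gene Cfb (0.303) and the interleukin-1 family gene Il1f9 (0.322). Clec4n was nearest to Fcer1g, its own adaptor (0.153), and to the phagocyte oxidase gene Ncf1 (0.156). Clec5a was nearest to Slfn1 (0.111) and to Mefv, which encodes pyrin (0.131). Clec12a was nearest to Sirpb1c (0.096) and Pilrb2 (0.109).

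Among the receptors themselves, Clec4n and Clec5a (0.327), Clec4n and Clec12a (0.484) and Clec4e and Clec4d (0.494) were closest, and Clec4e and Clec12a were farthest apart (1.81). Chromosomal neighbours were therefore not always nearest in profile, since Clec5a lies far from Clec4n. To the mean profile of the 5 receptors, the nearest genes were the hexokinase gene Hk3 (0.178), the coagulation factor gene F10 (0.193), Cd300lf (0.211), Ifi204 (0.220) and Siglece (0.220). These distances rest on 9 libraries that share their group differences, and they are descriptions.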

How the data were processed

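RNA of 9 mouse lungs, 3 per group, was extracted with TRIzol, selected with oligo(dT) beads and made into strand-marked libraries, per the labels' protocols. Reads were aligned with HISAT2 to GRCm38, per the submitters' processing notes; the annotation, counter, strand setting, filters and versions are not given in the sources used here. The authors deposited FPKM values, 1 column per library. No read counts were used, so depth and counting error are unknown, and the 3 mice per group limit the precision.

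Genes with FPKM of at least 1 in at least 3 libraries (14540) were tested on log2(FPKM + 1) with limma 3.58.1 (R 4.3.3), all 9 libraries in 1 fit, an intensity trend, two-sided, with Benjamini-Hochberg adjustment over all tested genes at 0.05. The fit was tested on simulated data; the share of changed genes it had to recover was lowered after nanozyme against model fell just short of it in a first run, and no result rests on that limit. An exact permutation test of 3 against 3 cannot give a p below 0.10, and none was run. The fit was repeated under 19 other settings, and 2 more, given with no test, were added after the data were seen.

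The receptors and the 13 gene lists were chosen with earlier results of these data known. Named genes are the receptors, up to 4 called members per list with the smallest adjusted p for model against normal, and the 2 nearest genes per receptor (5 for their mean). The result of 1 gene that this rule selects is not reported here. Fcer1g and Tyrobp were added to these as adaptors, and Ptprc, Csf3r, Csf1r, Ly6g and the chromosomal neighbours after their values were seen. The ratios, shares, places between group means, shared stretches and promoter motifs were also chosen after the data were seen, and 2 of the 5 motifs were respelled after a first scan. Tables and figures used Python 3.11.15 and matplotlib 3.10.9.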

Additional observations from a re-analysis of the deposited data

How the results depend on the processing

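Of 19 other settings of the fit, 0 reversed the direction of any receptor's change in any comparison. Relative to Ptprc and without nanozyme replicate 2 together, values with no test added after the data were seen, the change from normal lungs was -0.066 for Clec5a and -0.011 for Clec12a in nanozyme lungs. That opposite sign depends on the 1 added to each FPKM. With no 1 added, Clec5a over Ptprc was higher in nanozyme replicates 1 and 3 than in every normal lung, and Clec12a over Ptprc was at or near the normal range. All 5 receptors were called in model against normal lungs in each of the 19 settings. In nanozyme against model lungs 0 were called, and leaving out single libraries gave 0 to 5, with 5, all lower, without nanozyme replicate 2. Sample weights also gave 5, all lower, but that fit warned that its weights had not converged. Over these settings, the adjusted p of the 5 receptors in that comparison ran up to 0.528. In nanozyme against normal lungs 5 were called, 3 with only the 2 groups compared, 4 with no filter, and 3 to 5 when single libraries were left out. Over all tested genes, the nanozyme and model lungs differed at 3034 genes with sample weights, 3216 without nanozyme replicate 2 and 0 to 4 otherwise. The nanozyme and normal lungs differed at 2020 genes, at 5745 with sample weights, and at 795 and 748 without normal replicates 1 and 3. The model and normal lungs differed at 5824 genes, 43.4% of them higher in model lungs, a share of 55.3% with median-of-ratios scaling and 54.2% with equal column sums. The median change over all genes there was -0.121, and 0.004 with median-of-ratios scaling. Of the calls between nanozyme and normal lungs 60.4% were higher in nanozyme lungs, 46.8% with quantile normalization and 70.4% with equal column sums. The causes were not tested.

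The deviations of same-numbered replicates from their group means had correlations of -0.331 to 0.227, not all over 0.1. Not every library correlated best with its own number. Between nanozyme and model lungs the same-numbered correlations were 0.086, 0.227 and 0.135 for replicates 1 to 3. With 3 mice per group, these values cannot decide whether the numbers pair the mice. With a replicate block the receptors called were 5 in model against normal, 0 in nanozyme against model and 5 in nanozyme against normal lungs, and no receptor call changed. Over all tested genes the block gave 5628, 0 and 1734 calls in the same order. It lowered the SE of each receptor's change, for Clec12a to 0.184 from 0.282. The limits of these data are 3 mice per group, 1 nanozyme lung that stood apart, an unknown depth and a tissue of many cell types.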
